A study of Mus musculus with 2 samples.

Results

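The genes described here are 49 TGF-beta and BMP pathway genes, listed by name, of the 21853 protein-coding genes annotated on chromosomes 1 to 19, X and Y. They comprise 19 genes of ligands or ligand subunits, 9 receptor genes, 8 Smad genes, 4 Id genes, 4 secreted antagonists, 4 latent TGF-beta binding proteins (Ltbp) and the proteinase gene Bmp1. Accessible chromatin was measured by DNase-seq, in which open DNA of isolated nuclei is cut with DNase I and the cut ends are sequenced; the tissue was the calf muscle gastrocnemius. The animals were males of the hybrid mouse strain B6CASTF1/J aged 10 days, in 1 group of 2 libraries, biological replicates 1 and 2 in the labels. Both labels name 3 males per sample and the same donor record, and do not say whether tissue was pooled, so the spread between the replicates may be partly technical. There was no treatment, mutant or other age, and the comparisons made were between roles in the pathway, with all coding genes, and between the replicates.

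Ligands of the TGF-beta superfamily are secreted dimers that bring type II and type I receptor kinases together at the cell surface. TGF-beta and activin receptors phosphorylate SMAD2 and SMAD3, BMP receptors phosphorylate SMAD1, SMAD5 and SMAD9, and both sets enter the nucleus with SMAD4. In skeletal muscle the activin and myostatin branch restrains growth and the BMP branch favours it, while the ID proteins, classical BMP targets, keep E proteins from pairing with myogenic factors such as MYOD1. SMADs activated by BMP receptors are known to bind GGCGCC and, with SMAD4, the BMP response element, searched here as GGCGCC, then any 5 bases, then GTCT.

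A site is a stretch where peaks of both libraries overlapped by at least 1 bp. Its value in each replicate is the deposited signal of the highest peak there, taken as scaled to library depth. A footprint is a short stretch that stayed protected from DNase I inside open chromatin, called shared where footprints of both libraries overlapped. The sequences that follow are 150 bp around a site's midpoint in mm10, 5′ to 3′ on the gene's strand, with bases in shared footprints in capitals. They are the highest sites of Id1, Id3 and Smad6, the next highest site away from all starts, in Ltbp4, and the sites of Id1, Id2 and Id3 outside exons that hold the BMP response element, picked after the motif search. The number after the gene is the distance in bp of the midpoint from the gene's nearest coding start, negative upstream.
Id1 site -1060 (chr2:152735116-152735265, + strand): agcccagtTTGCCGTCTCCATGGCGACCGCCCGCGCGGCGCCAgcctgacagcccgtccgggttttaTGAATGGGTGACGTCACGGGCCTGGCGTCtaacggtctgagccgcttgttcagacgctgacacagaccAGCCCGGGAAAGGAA
Id1 site +3200 (chr2:152739376-152739525, + strand): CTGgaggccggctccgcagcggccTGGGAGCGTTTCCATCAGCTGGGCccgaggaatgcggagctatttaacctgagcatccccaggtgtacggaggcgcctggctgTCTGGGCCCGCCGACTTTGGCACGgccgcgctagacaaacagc
Id2 site -1761 (chr12:25098826-25098975, - strand): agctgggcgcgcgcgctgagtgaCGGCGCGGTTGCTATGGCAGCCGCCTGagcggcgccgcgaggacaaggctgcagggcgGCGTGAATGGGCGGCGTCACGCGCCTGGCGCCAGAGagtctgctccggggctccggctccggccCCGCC
Id3 site -3026 (chr4:136140396-136140545, + strand): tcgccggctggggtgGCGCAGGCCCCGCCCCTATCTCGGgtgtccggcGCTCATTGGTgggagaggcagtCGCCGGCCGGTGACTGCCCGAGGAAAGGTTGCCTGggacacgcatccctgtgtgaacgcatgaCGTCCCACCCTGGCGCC
Id3 site +4434 (chr4:136147856-136148005, + strand): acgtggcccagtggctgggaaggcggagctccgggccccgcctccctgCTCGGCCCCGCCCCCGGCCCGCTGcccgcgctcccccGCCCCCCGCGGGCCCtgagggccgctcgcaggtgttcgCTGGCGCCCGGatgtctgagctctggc
Smad6 site -992 (chr9:64022976-64023125, - strand): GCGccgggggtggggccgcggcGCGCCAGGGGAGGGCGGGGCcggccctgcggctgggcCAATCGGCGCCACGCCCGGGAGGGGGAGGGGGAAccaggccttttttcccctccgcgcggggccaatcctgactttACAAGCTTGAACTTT
Ltbp4 site +2563 (chr7:27330966-27331115, - strand): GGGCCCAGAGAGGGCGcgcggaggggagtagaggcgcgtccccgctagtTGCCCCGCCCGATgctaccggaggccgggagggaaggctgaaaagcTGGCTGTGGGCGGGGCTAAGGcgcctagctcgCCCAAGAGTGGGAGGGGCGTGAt

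In the 150 bp around each site's midpoint, the BMP response element was found at open sites of Id1, Id2 and Id3, and at no site of the other 46 genes. Parts of wider sites outside this window were not searched. Of 69560 shared sites in the genome whose midpoint lay over 500 bp from every annotated start, 18 held it in this window, and 3 of these 18 were the Id1 site +3200, the Id2 site -1761 and the Id3 site +4434. They made up 0.826% of the 363 such sites in the loci of the pathway genes, against 0.0259% of all 69560. These sets were not matched for base composition or distance from genes. In the Id2 site 10 of the 15 bases of the element lay in shared footprints, in the Id3 site 9 and in the Id1 site 3. The Id2 site had a value of 5.11 in replicate 1 and 9.21 in replicate 2, the Id3 site 4.40 and 7.49, and the Id1 site 3.39 and 4.55. All 3 were above the median peak of their library in both replicates, which was 0.729 in replicate 1 and 0.716 in replicate 2. A further copy lay 1264 bp downstream of the Id3 coding start, next to another annotated Id3 start, in a site of 2.27 and 2.99, with no base in a shared footprint.

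The shorter core GGCGCC was in all 7 printed sequences, but those picked for the full element had to hold it. The core lay wholly within a shared footprint in the highest sites of Id1, Id3 and Smad6, and in the Id2 site -1761 and the Id3 site +4434. In the loci as a whole 30 of 363 sites away from starts held it (8.26%), against 5.14% of all such sites in the genome. Of these, Id3 had 5 among its 8 such sites, Id1 had 4 among 8 and Ltbp4 had 3 among 18. At the highest promoter site the core was present in 14 of 45 open genes (31.1%), against 16.8% of coding promoters with a shared site. The full element was in 0 of 45, against 0.0626%. The promoter sets were not matched for base composition either. A looser element, GGCGCC, then any 5 bases, then G, any base and C, was added after the Id1 sequence was seen. It was in 5 of 45 promoter sites, those of Bmpr2, Smad5, Smad7, Smad9 and Tgfbr3 (11.1%, against 3.41%). Away from starts it was in 8 of 363 sites (2.20%, against 0.657%). These 8 include the highest site of Id1, and the looser element was written with the Id1 sequence known. They also include the sites of Id1, Id2 and Id3 with the full element, which always matches the looser one. The share of 2.20% is therefore no separate evidence from those sites.

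The Id1 site -1060 held the looser element at bases 29 to 42 of the printed sequence, all 14 in shared footprints. Another copy, at bases 37 to 50, had 7 bases in shared footprints. The site also held the cyclic AMP response element TGACGTCA, with all 8 of its bases in a shared footprint. It was the only one of the 363 sites with that motif (0.275%), against 0.341% of all. The SMAD3 and SMAD4 palindrome GTCTAGAC was at the Smad6 promoter and in introns of Bmpr1b, Acvr1 and Fstl3. The Smad6 copy was 1 of 45 promoter sites (2.22%), against 0.111% of coding promoters. The Bmpr1b site was weak, with 0.239 and 0.411, below the median peak of its library in both replicates. None of these 4 copies overlapped a shared footprint, and the 3 in introns were 0.826% of the 363 sites, against 0.121% of all. The E-box CAGCTG, bound by myogenic factors, was in 22.3% of the 363 sites, against 23.2% of all. TGANTCA, bound by AP-1, was in 5.23% against 6.36%, CACCTG in 11.3% against 12.9%, and GGAATG, bound by TEAD factors, in 13.5% against 9.83%. At promoters the ETS site CCGGAAG was in 1 of 45 genes, Acvr2a, against 13.0% of coding promoters, and the GC box GGGCGG was in 62.2% against 58.9%. All motifs were searched on both strands of the 150 bp windows alone, the element contains the core, and a match describes letters, not binding. The 363 sites were not matched to all such sites in base composition or distance from genes, nor were the 45 promoter sites matched in base composition.

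Promoters, taken as 500 bp on either side of a coding start, were open in most of the genes. A peak lay there in both replicates in 45 of 49 genes, against 66.0% of all coding genes. The 4 others were all ligands. At the start of Bmp5, a BMP known for skeletal patterning, and of Bmp10, a BMP made in the heart, neither library had a peak. Gdf5, which acts in joint formation, had a promoter peak of 0.527 in replicate 1 and none in replicate 2, and Gdf7, known for tendon, had 0.816 in replicate 1 and none in replicate 2. These single-library peaks rested on 97 and 150 tags, taken as the cleavage events behind the deposited values. Outside the promoter as defined here, a site 924 bp upstream of the Gdf5 start was open in both replicates, with 5.01 and 2.88. Of the 49 genes 35 had a CpG observed over expected ratio of at least 0.6 at their most upstream coding start, and 34 of these were open, against 97.1% of the 10185 coding genes at or above that ratio. Of the 14 below it 11 were open, against 38.8% of 11668 coding genes.

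**Figure D1:**
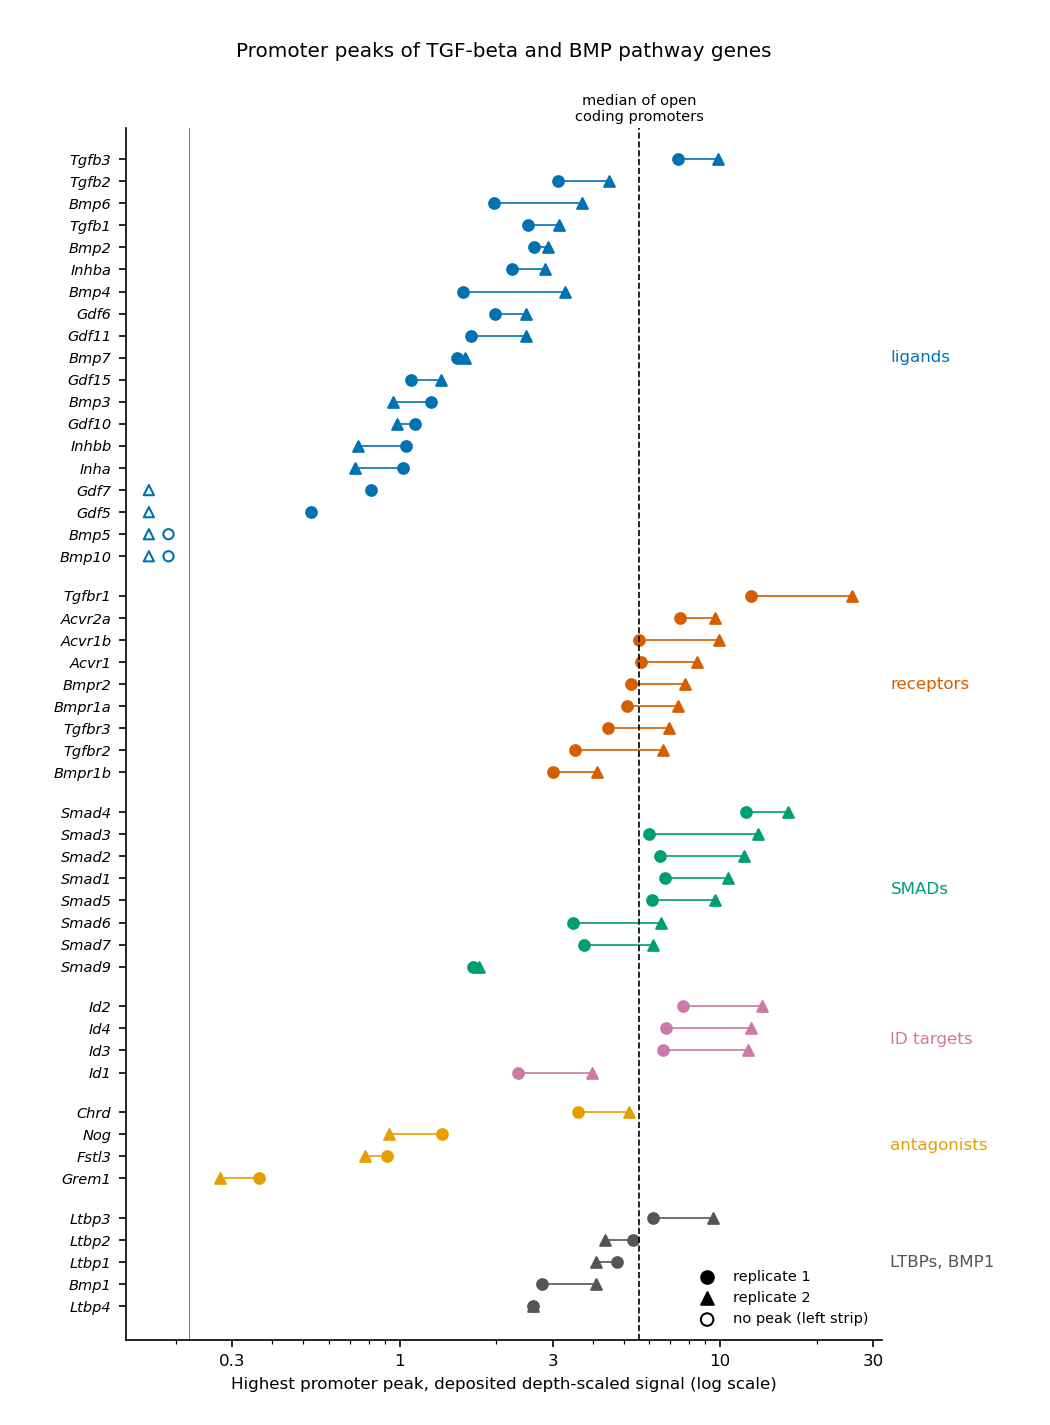
Highest promoter peak of each of the 49 genes by role, as the deposited signal, taken as depth-scaled, on a log axis. Circles are replicate 1 and triangles replicate 2, and open symbols in the left strip mark no peak. Receptors and SMADs lie mostly around or above the dashed median of open coding promoters, 5.59, and of the ligands Tgfb3 alone lies above it in both replicates, through a peak about 500 bp upstream of its start.

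Open promoters differed in value between the roles. The median of the mean of both replicates was 4.39 over the 45 open genes (quartiles 2.23 and 7.84), against 5.59 over 14419 open coding genes (quartiles 2.26 and 9.81). It was 2.23 for the 15 open ligand genes, 6.53 for the 9 receptors, 8.28 for the 8 Smad genes, 9.52 for the 4 Id genes, 0.995 for the 4 antagonists and 4.65 for the 4 Ltbp genes. Of the ligands 1 of 15, Tgfb3, was above the median of open coding promoters, of the receptors 7 of 9 and of the Smad genes 5 of 8. The highest 10% of open coding promoters held Tgfbr1 and Smad4, and the lowest 10% held Grem1, Fstl3, Inha and Inhbb. These are differences between genes in the same 2 libraries, and no test was made of them.

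Among the TGF-beta ligands, Tgfb3 had the highest value within 500 bp of a coding start, with 7.40 in replicate 1 and 9.85 in replicate 2. Tgfb2 had 3.13 and 4.49, and Tgfb1, the form most studied in fibrosis, had 2.51 and 3.15. This order depended on the width of the promoter. The Tgfb3 peak was centred at -500 bp in replicate 1 and -510 bp in replicate 2, and with 250 bp on either side of the start the mean of the replicates was 2.39 for Tgfb3, under 2.83 for Tgfb1 and 3.81 for Tgfb2, which kept their values.

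The BMP ligands had lower values. Bmp6 had 1.97 and 3.70, Bmp2 2.62 and 2.91, and Bmp4 1.57 and 3.28, and these 3 ranges overlapped, so that their order was not settled. Bmp7, a kidney and bone morphogen, had 1.51 and 1.60, and Bmp3, an atypical BMP that opposes the others, had 1.26 and 0.957. Among the GDF ligands Gdf6, a relative of Gdf5, had 1.98 and 2.48, and Gdf11, the closest relative of myostatin, had 1.67 and 2.48. Gdf15, a circulating stress-induced factor, had 1.09 and 1.34, and Gdf10 had 1.11 and 0.980. Of the subunits, Inhba (activin beta A) had 2.24 and 2.85, Inhbb (beta B) 1.04 and 0.739, and Inha, the alpha subunit specific to inhibin, 1.02 and 0.728. The Inhba peak was centred over 500 bp downstream of its start, and with 250 bp on either side the mean of the replicates was 0.990 for Inhba, while Gdf15 was not open.

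All 9 receptor promoters were open. Tgfbr1, the type I receptor of TGF-beta, had the highest value of the 49 genes, 12.5 in replicate 1 and 25.9 in replicate 2 (19.2 ± 9.44, SD, n = 2). It lay at the 97.8th percentile of open coding promoters, and replicate 2 was 2.07 times replicate 1. Its type II partner Tgfbr2 had 3.53 and 6.63, below Tgfbr1 in both replicates, and the coreceptor Tgfbr3 (betaglycan) had 4.47 and 6.91. Of the activin receptors, Acvr2a (type II) had 7.51 and 9.65, Acvr1b (type I) 5.60 and 9.93, and Acvr1, a type I receptor that also serves BMPs, 5.68 and 8.46. The Acvr1 peak also covered the promoter of the neighbouring gene Upp2 and cannot be assigned to 1 of them. Of the BMP receptors, Bmpr2 (type II) had 5.26 and 7.79, Bmpr1a (type I) 5.14 and 7.37, and Bmpr1b (type I) 3.00 and 4.11, the lowest of the 9.

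Of the signal transducers, Smad4, the partner of both branches, had 12.1 in replicate 1 and 16.2 in replicate 2, at the 91.8th percentile. The TGF-beta and activin SMADs had 6.48 and 11.9 (Smad2) and 5.98 and 13.2 (Smad3), and the BMP SMADs had 6.75 and 10.6 (Smad1) and 6.13 and 9.63 (Smad5). These 4 overlapped one another. Smad9, the third BMP SMAD, had only 1.70 and 1.77, below every other Smad gene in both replicates. The inhibitory Smad6, which blocks the BMP branch, had 3.47 and 6.53, and Smad7, which blocks both, had 3.77 and 6.19.

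Of the targets, Id2 had 7.67 and 13.5, Id4 6.76 and 12.5, Id3 6.65 and 12.2, and Id1 2.34 and 3.98. The first 3 overlapped, and Id1 was below them in both replicates. Of the antagonists, Chrd (chordin, which binds BMPs) had 3.59 and 5.19, Nog (noggin, likewise) 1.36 and 0.927, and Fstl3, which binds activin and myostatin, 0.914 and 0.781. Grem1 (gremlin, a BMP antagonist) had the lowest open promoter of all, 0.364 and 0.276, resting on 67 and 47 tags (exact Poisson 95% intervals 0.282 to 0.463 and 0.203 to 0.367). Replicate 1 had 1 Grem1 promoter peak and replicate 2 had 2 of equal value. Of the proteins that store latent TGF-beta in the matrix or resemble those that do, Ltbp3 had 6.17 and 9.52, Ltbp2 5.36 and 4.37, Ltbp1 4.76 and 4.10, and Ltbp4 2.60 and 2.61. The peaks of Ltbp1 and Ltbp2 lay upstream of the start, at -547 bp and -419 bp in replicate 1, and with 250 bp on either side the means of the replicates were 1.86 for Ltbp1 and 0.626 for Ltbp2. Bmp1, a proteinase that cleaves chordin and procollagens, had 2.79 and 4.09.

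Several genes have coding starts far apart, and these were open to different degrees. Ltbp4, a modifier of muscular dystrophy in mice, was open at 3 start clusters, with 0.827 and 1.11 at the most upstream one, 1.50 and 1.47 at the second, 4029 bp on, and 2.60 and 2.61 at the third, 27033 bp on. Ltbp1 showed the opposite order, with 4.76 and 4.10 at the first start and 0.669 and 1.19 at the start 173242 bp downstream. Bmpr1b was open at 3 clusters, with 3.00 and 4.11, then 0.789 and 1.74, then 0.413 and 0.381. Smad3 had 5.98 and 13.2 at its first start and 1.85 and 2.17 at the start 91447 bp downstream, and Id2 had 0.669 and 0.575 at its first start, against 7.67 and 13.5 at the pair 1048 bp on. Further coding starts, over 1000 bp away, of Tgfbr1, Tgfbr3, Bmpr1a, Bmp6, Acvr1, Smad2, Smad4, Ltbp2 and Inhba had no peak in either library.

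Shared footprints were found in the promoters of 41 of 49 genes, against 62.0% of all coding genes. The median was 5 per promoter, against 3 in all coding genes, and the total was 250. The libraries taken singly held 414 (replicate 1) and 381 (replicate 2). Smad2 had 16, Smad7 15, Smad3 14, Id4 11, and Bmpr1a and Smad1 10 each. These counts cover all coding starts of a gene, so genes with several starts were searched over more sequence. Smad2 had 6 starts, Smad3, Smad7 and Bmpr1a 4 each, and Id4 and Smad1 1 each. Genes with more footprints were those with higher peaks (Spearman's rho 0.763 over 45 genes and 0.708 over 14419 open coding genes), points that share libraries and depth. The open promoters with no shared footprint within 500 bp of a start were those of Inha, Inhba, Nog and Grem1; the Inhba peak held 3 just beyond that distance.

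**Figure D2:**
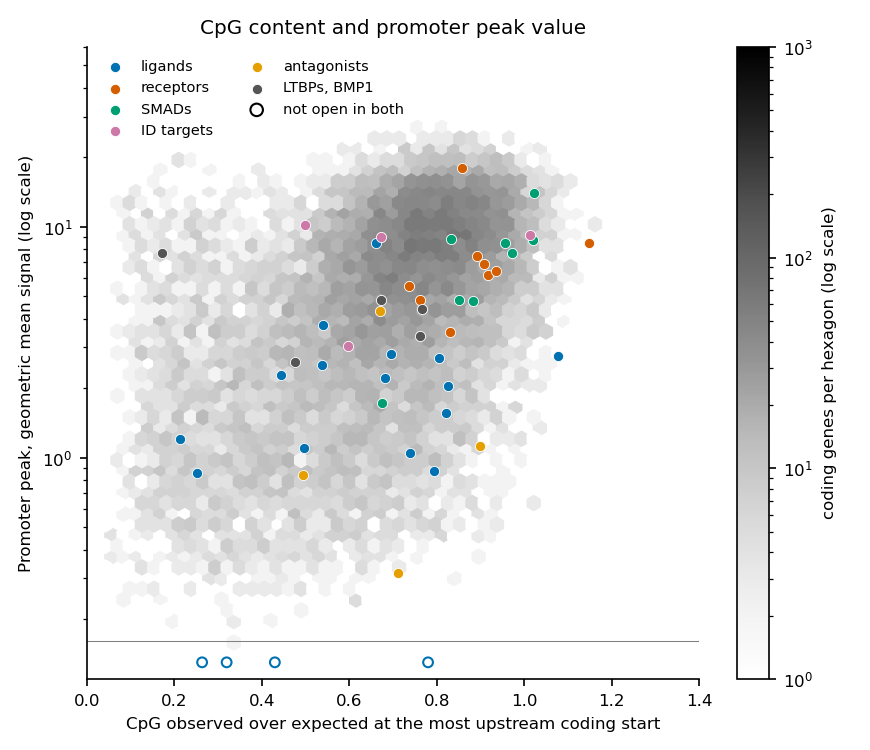
Promoter peak value (geometric mean of the replicates, log axis) against the CpG observed over expected ratio at the most upstream coding start, with the 49 genes in colour over all open coding genes in grey; open circles under the line are genes not open in both replicates. Some genes have CpG-rich starts with low values, among them Nog (0.899) and Inhbb (0.793), and rho was 0.440 over 45 genes and 0.449 over 14419.

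CpG content overlapped between the roles. The ratio had a median of 0.761 over the 49 genes, against 0.561 over all coding genes and 0.172 over those without a peak in both replicates. It was related to the peak value to a like degree in the pathway genes and in all open coding genes (rho 0.440, n = 45, and 0.449, n = 14419), again with shared libraries and base composition behind every point. Gdf7 had a ratio of 0.780 and a peak in only 1 library, while Inha at 0.251 was open in both. For Ltbp3, at 0.172, the ratio was among the lowest and the value among the higher ones.

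Each locus, taken as the gene body and 20 kb to either side, held further sites. There were 503 in all, with a median of 10.8 per 100 kb in the 49 loci, against 6.16 in all coding loci. Own promoters accounted for 94, other annotated starts for 60, exons for 45, introns for 202 and intergenic sequence for 102. Ltbp4 had the highest density, 31.7 per 100 kb, followed by Id2 (30.0), Gdf15 (27.9), Ltbp3 (27.8), Id1 (26.7) and Fstl3 (26.5). Bmp5 (1.82) and Smad2 (2.74) had the lowest, and all 3 sites of Smad2 were at its own promoters. Smad3 had the most sites, 25, of which 21 were intronic, and Tgfbr3 had 24, of which 18 were intronic. At Id2 and Id3 most sites were intergenic, 10 of 13 and 8 of 10.

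**Figure D3:**
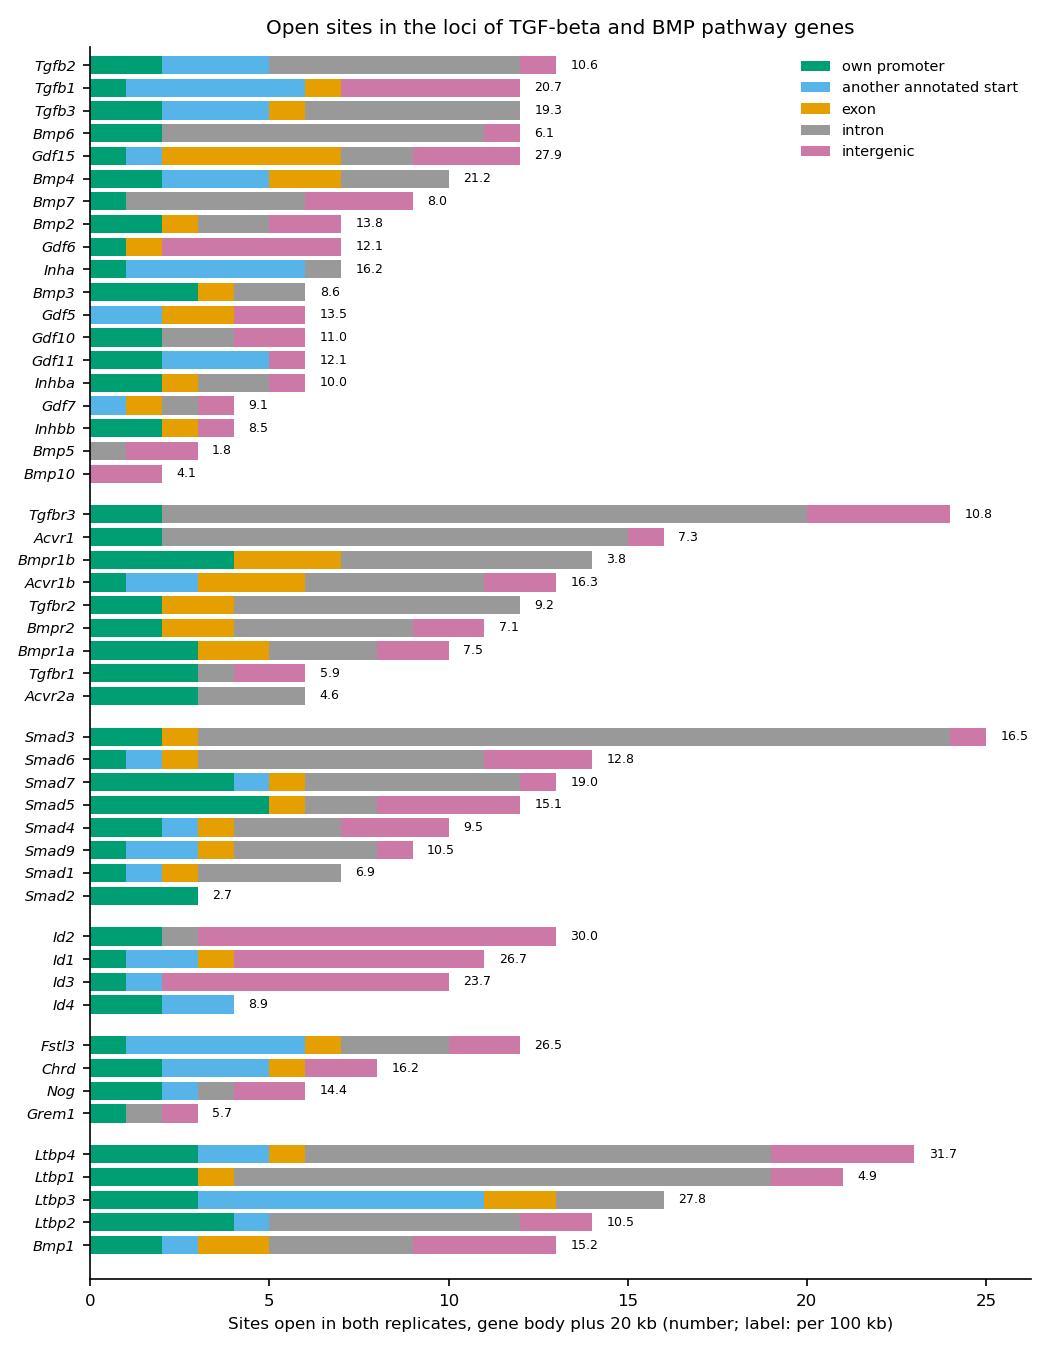
Number of sites open in both replicates in each locus (gene body plus 20 kb), stacked by position, with the number per 100 kb printed beside each bar. Smad3, Tgfbr3, Ltbp4 and Ltbp1 have mostly intronic sites, Id2 and Id3 mostly intergenic ones, and Smad2 has promoter sites only.

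The highest site of a locus was outside the gene's own promoter in 26 of 49 genes, against 55.8% of coding loci with a shared site. This was so in 13 of 19 ligands, 3 of 8 Smad genes, all 4 antagonists, and 0 of 9 receptors. The 13 ligands include Bmp5, Bmp10, Gdf5 and Gdf7, which had no shared promoter site, so their highest site could only lie outside it. In 12 of the 26 genes the site lay within 500 bp of another annotated start, often that of a neighbour. Examples are the Rnf126 start in the Fstl3 locus (10.9 and 18.4), the Clcn2 and Polr2h starts in the Chrd locus (10.1 and 13.4), the Rfxap start in the Smad9 locus (10.2 and 12.01) and the B9d2 start in the Tgfb1 locus (9.14 and 9.03). The Bmp4 site (5.10 and 8.13) lay at a start of noncoding Bmp4 and Gm15222 transcripts, and the Smad7 site (5.10 and 7.94) at the Gm20544 start 858 bp upstream. Which gene such a site serves was not tested. In the other 14 genes the site was over 500 bp from every start.

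The site highest among those was 992 bp upstream of Smad6, with 12.1 in replicate 1 and 16.6 in replicate 2, against 3.47 and 6.53 at the Smad6 promoter itself. Next came the Id3 site -3026, with 6.93 and 12.5, against 6.65 and 12.2 at the promoter, so that the ranges of the 2 sites overlapped. The intronic Ltbp4 site +2563 had 6.61 and 9.97, and a second Ltbp4 site, 1591 bp from a start, had 7.65 and 7.75. Ltbp2 had an intronic site near its 3′ end with 7.96 and 7.64. The Id1 site -1060 had 5.54 and 7.82, against 2.34 and 3.98 at the Id1 promoter, and the 2 ranges did not overlap. A second Smad6 site, in an intron 53331 bp downstream of the nearest Smad6 coding start, had 5.84 and 7.27, a range that overlapped that of the Smad6 promoter.

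Of the other 5 of the 12 highest sites of this kind, 4 lay nearer to the starts of other genes. They were the Fstl3 site -9701 (6.69 and 9.55), 619 bp from the Rnf126 start, 2 sites over 20 kb from Gdf15 near Ssbp4 (7.78 and 7.78, and 5.23 and 8.98), and the Ltbp3 site -12913 (8.78 and 6.19), 1642 bp from the Fam89b start. The fifth was the Id2 site -1761 described with its sequence. Among the genes without an open promoter, the Bmp5 locus had 1 site of 1.91 and 4.26, beyond the 3′ end of Bmp5, and the highest Bmp10 site, 22207 bp from the start, had 0.696 and 0.792. The highest sites of the Gdf5 and Gdf7 loci were at the starts of Cep250 (5.27 and 8.74) and Hs1bp3 (9.17 and 6.94). The Gdf5 locus also held the site 924 bp upstream of Gdf5 (5.01 and 2.88) and one in a Gdf5 exon (3.12 and 3.51).

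**Figure D4:**
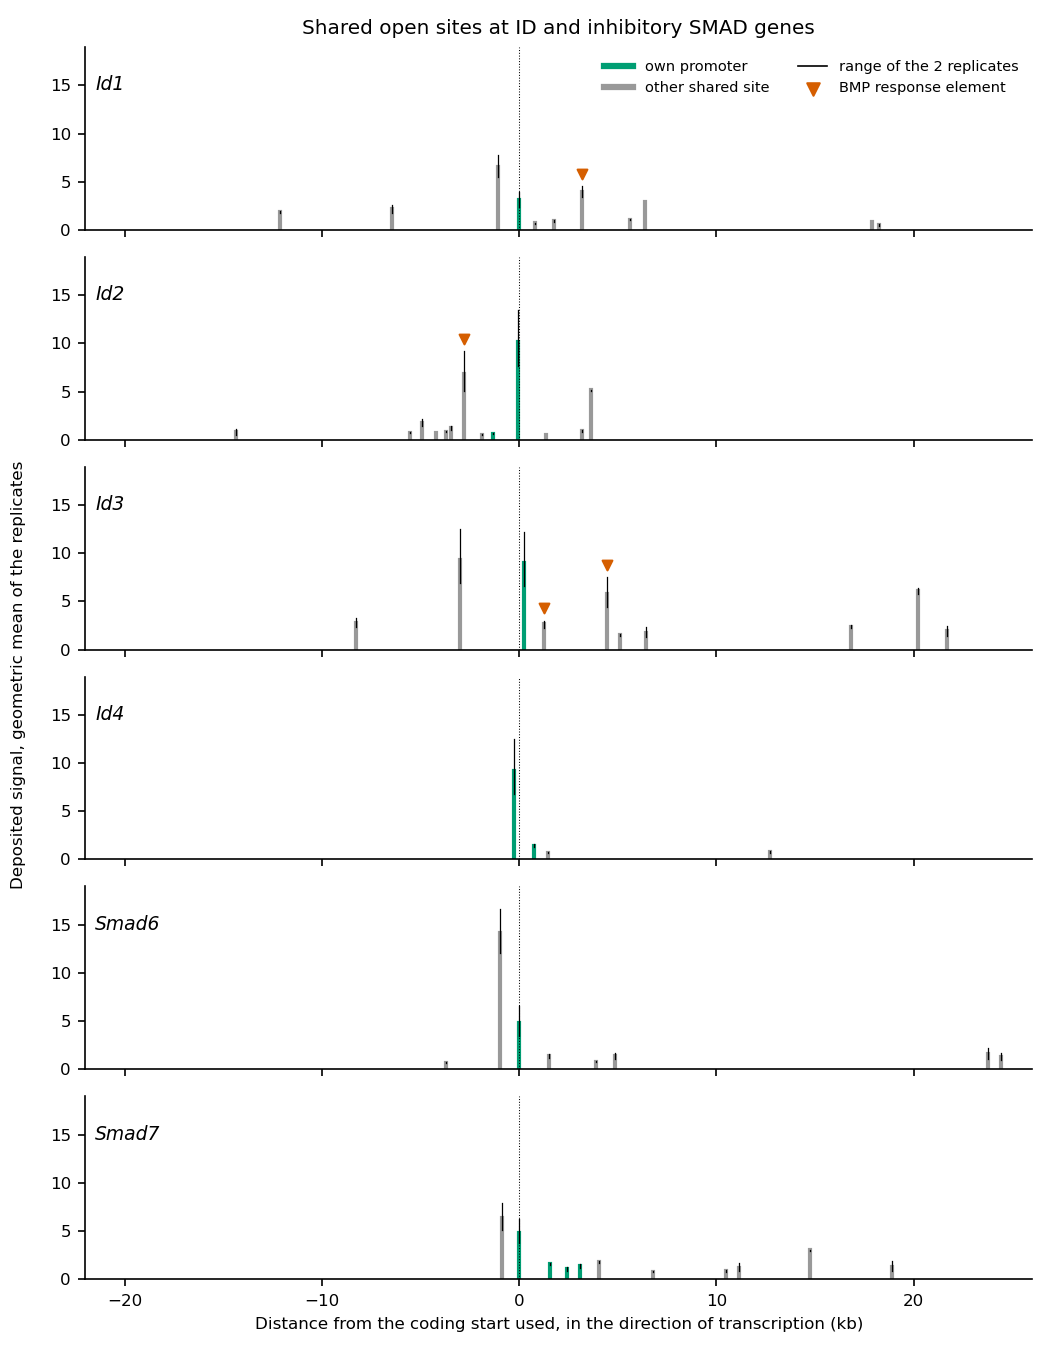
Sites open in both replicates around Id1, Id2, Id3, Id4, Smad6 and Smad7, by distance in kb from the coding start used; bar height is the geometric mean of the deposited signal, black lines span the 2 replicates and triangles mark the BMP response element. Id1 and Smad6 have a taller site about 1 kb upstream than at the promoter, and the element marks 1 site at Id1, 1 at Id2 and 2 at Id3 (the Id2 start used is the pair of coding starts with the higher value).

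The replicates ranked the genes alike but differed in scale. Over the 45 open genes Spearman's rho between the replicates was 0.967, against 0.955 over 14419 open coding genes. The deposited value was higher in replicate 2 in 36 of 45 genes, against 82.0% of open coding genes, with a median ratio of replicate 2 over replicate 1 of 1.44, against 1.36 over open coding genes and 1.18 over all 94091 shared sites. With the libraries scaled on all shared sites, an exact binomial test on the tags behind each value, adjusted over all 14419 open coding genes, called 28 of 45 higher in replicate 2 and 10 lower. The corresponding shares of open coding genes were 54.5% and 18.6%. Scaled on open coding promoters instead, which was added after seeing the data, the test called 18 higher and 13 lower, against 37.4% and 34.6% of open coding genes. The test covers counting error in 2 libraries only and is no comparison of conditions.

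Under both scalings Tgfbr1, Smad3 and Bmp4 were among the genes higher in replicate 2, by 2.07, 2.20 and 2.09 times in the deposited values. For Tgfbr1 the adjusted p of the exact binomial test was 2.19e-109 scaled on all shared sites and 7.11e-61 scaled on open coding promoters. The Ltbp genes divided: Ltbp2 and Ltbp1 were lower in replicate 2, at 0.816 and 0.861 times, while Ltbp3 was higher, at 1.54 times. Nog (0.682 times), Inhbb (0.708 times), Inha (0.712 times) and Bmp3 (0.762 times) were lower in replicate 2 as well. Depth, yield and tissue composition of the libraries cannot be told apart as sources of these differences.

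**Figure D5:**
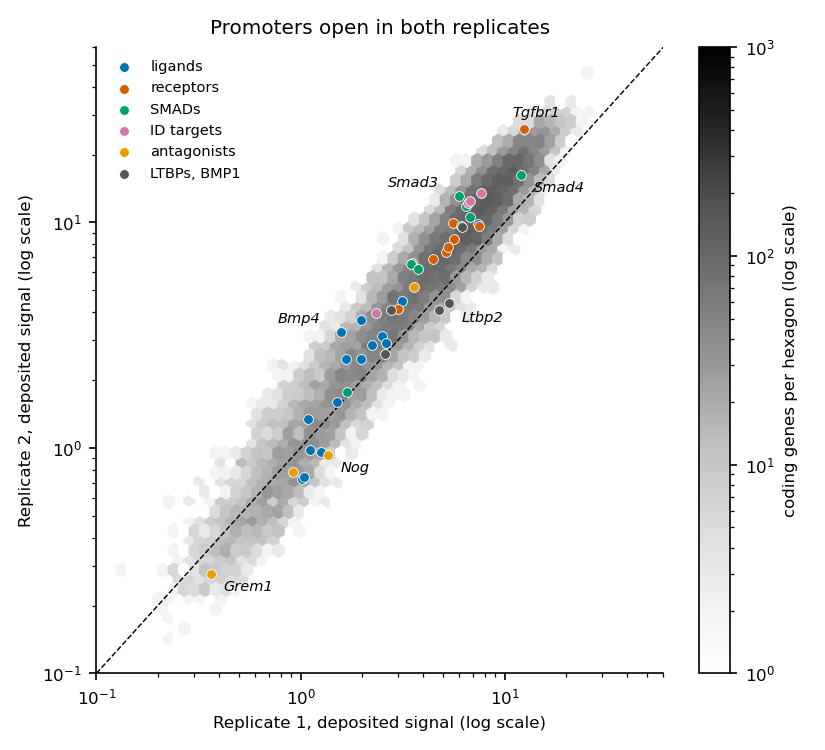
Promoter value in replicate 2 against replicate 1 on log axes, with 45 pathway genes in colour over the 14419 coding genes open in both, and a dashed line of equality. Most genes lie above the line, Tgfbr1 and Smad3 well above it, and Ltbp2, Nog and Grem1 lie under it.

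Of 73 further genes of the pathway 55 had an open promoter in both replicates, against 66.0% of all coding genes. Of the other ligands 1 of 14, Bmp8a (2.19 and 2.13), was open in both, and Mstn (myostatin), a ligand made by muscle itself, had 0.499 in replicate 2 and no peak in replicate 1. Receptors and coreceptors were open in 8 of 10, with Rgmb, a BMP coreceptor, at 13.5 and 25.0, and Acvr2b, the main myostatin receptor, at 7.67 and 11.7. Antagonists and other extracellular modulators were open in 12 of 15, genes of latency and activation in 12 of 12, intracellular regulators such as Skil (6.68 and 13.6) in 14 of 14, and other targets such as Klf10 (9.96 and 19.4) in 8 of 8. The median value of the 55 open genes was 3.46, against 5.59 over all open coding genes.

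Promoters of cell type markers were open in both replicates in 7 of 7 genes for skeletal myofibres, 4 of 4 for fibroblasts and 4 of 4 for endothelium. They were open in 0 of 3 each for lymphocytes, hepatocytes and macrophages (2 of the macrophage markers in replicate 2), and in 1 of 3 for cardiac muscle, where Nppa had 0.598 and 0.734. In this whole tissue a site open in few cells and one open weakly in many cannot be told apart, and which cell type carried a given site was not tested.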

How the data were processed

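DNase-seq of gastrocnemius from B6CASTF1/J males was analysed from 2 libraries of 1 group. Per the labels, peaks and footprints were made by the authors for each library on mm10 without pooling; for the aligner and the callers, names and versions were not given in the sources used here. Of the deposited peak sets, the wider holds a signal per peak, taken here as tags scaled to library depth. The window behind this signal was not given in the sources used here. All these values (100%, within 0.05 of a step) were whole multiples of 0.00544 in replicate 1 and 0.00587 in replicate 2, taken as 1 tag each. The libraries had 123255 and 150088 peaks and 310961 and 373154 footprints, and their median peaks stood for 134 and 122 tags. Tags can include PCR copies, so tests and Poisson intervals cover counting error only. The deposited footprint files carry a p-value type of number, 0.01 on every line, so only positions were used; the per-position false discovery rates were not used here.

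Starts came from GENCODE M21, limited to genes with a coding transcript, and sequence from the GRCm38 assembly, whose build matches mm10. The animals carry CAST alleles as well, and their effect on mapping to this B6 reference was not analysed here. The promoter value was the highest peak touching 500 bp on either side of a coding start, and loci were gene bodies plus 20 kb. Python 3.11.15, numpy 2.4.6, scipy 1.17.1, pysam 0.24.0, samtools 1.23.1 and matplotlib 3.10.9 were used, and the tests were checked on simulated data. Replicates were compared by an exact conditional binomial test with Benjamini-Hochberg adjustment and a threshold of 0.05. Named in full were, by role, the 3 open promoters of highest value, every gene without an open promoter, the 12 highest sites over 500 bp from all starts (at most 2 per gene), and then the other members by their values. The genes, lists, motifs and rules were chosen with earlier results of these data known. Alternatives changed the peak set, promoter and locus size, starts, value summary, scaling and replicate. Names of 73 pathway genes and 27 markers all matched, 2 through synonyms in RefSeq.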

Additional observations from a re-analysis of the deposited data

How the results depend on the processing

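The number of genes with an open promoter was 41 to 47 under the settings tried. The stricter deposited peaks lost Gdf15, Inha, Grem1 and Fstl3, a promoter of 1000 bp on either side gained Gdf5, and replicate 1 alone gained Gdf5 and Gdf7. The median value of open members was 3.50 with promoters of 250 bp on either side, 6.02 with peaks summed, 3.56 with closed promoters counted as 0, and 3.13 to 4.37 with 1 replicate left out. With 250 bp on either side Tgfb3, Inhba, Ltbp1, Ltbp2 and Gdf15 had lower values, since their peaks lay farther from the start. Values were higher with 1000 bp on either side for Smad6, Smad7, Id1, Inha, Nog, Fstl3, Grem1, Ltbp4 and Gdf5. The mean of the replicates rose from 2.61 to 7.23 for Ltbp4, from 3.16 to 6.68 for Id1 and from 1.14 to 2.46 for Nog. For Smad6 it reached 14.3. The low values of these genes, and the medians by role, thus hold for promoters of 500 bp on either side. Shared sites numbered 295 in gene bodies alone and 763 with 50 kb on each side. Their median density per 100 kb was 7.27 with the stricter peaks, 15.2 in gene bodies, 12.004 with 10 kb, 9.19 with 50 kb, and 14.0 to 15.1 in single libraries, where no overlap is required. Promoter footprints were 381 to 414 in single libraries, for the same reason. In gene bodies alone the highest site was outside the promoter in 13 genes. The replicate test called 31 genes in all when scaled on open coding promoters, against 38. No paired analysis was possible because there was only 1 group. With 2 libraries the spread between animals is poorly known, and weak promoters rest on few tags.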
